A study of Mus musculus with 13 samples.

Results

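The comparison set 3 PyMT-induced breast tumours of mice given a plasmid for sFlk1 against 3 such tumours of mice given the empty vector. These 6 tumours, out of 13 in the series, were taken by the injected plasmid that the labels name. They were compared over 8019 of the 8219 autosomal bins of 300 kb, those above 0% in at least 1 of the 13 tumours. The other 200 bins were at 0 in every tumour, and 190 of them lay in the first 3 Mb of a chromosome.

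The series measured 5-hydroxymethylcytosine (5hmC) by shallow TAB-seq in PyMT-induced tumours, and its design text asks whether the global level differs where the vasculature is normalised or truncated. The 6 mice were of the FVB strain and 12 weeks old, and all carried PyMT-induced tumours. The treated mice were injected hydrodynamically with PRRL2-sFlk1 and the controls, in the same way, with empty PRRL2; the labels state that the former makes tumours more hypoxic, and give no oxygen or vessel measurement for these tumours. The other 7 tumours, 3 from Phd2 wild-type and 4 from Phd2+/- mice of 16 weeks, served here as a reference profile for level classes, and they entered the filter on bins and limma's estimate of the spread. The labels do not name the promoter behind the PyMT transgene, and the level of sFlk1 reached in these mice is not given in the sources used here. A tumour piece holds cancer, vessel, stromal and immune cells together, so fewer cells of a 5hmC-rich type and less 5hmC per cell cannot be told apart.

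5hmC is made from 5-methylcytosine by the TET1, TET2 and TET3 dioxygenases, which need oxygen, iron and 2-oxoglutarate. TAB-seq protects 5hmC with a sugar, oxidises the remaining 5-methylcytosine with a TET enzyme and then applies bisulfite, so that a cytosine still read as cytosine was 5hmC. sFlk1 is a soluble form of the receptor VEGFR2 (Flk1, gene Kdr) that binds VEGF in the circulation and so holds back the growth of tumour vessels. In mammals 5hmC sits mostly at CpG sites of gene bodies and enhancers, and in tumours it is usually lower than in the tissue of origin.

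CpG sites are where 5hmC can form, and promoters differ widely in how many they hold. The 200 bases before the gene's 5' end are shown for the 3 prolyl hydroxylases that sense oxygen, whose bins differed in unlike directions, and for Postn, which encodes the matrix protein periostin, as a CpG-poor contrast. Each is printed 5' to 3' on the strand of the gene, with every CpG in capitals (RefSeq, GRCm38.p6). Egln1 (PHD2) holds 41 CpG in chr8:124949255-124949454, minus strand, and Egln2 (PHD1) 19 in chr7:27166803-27167002, minus strand. Egln3 (PHD3) holds 9 in chr12:54203875-54204074, minus strand, and Postn 2 in chr3:54359067-54359266, plus strand.
Egln1: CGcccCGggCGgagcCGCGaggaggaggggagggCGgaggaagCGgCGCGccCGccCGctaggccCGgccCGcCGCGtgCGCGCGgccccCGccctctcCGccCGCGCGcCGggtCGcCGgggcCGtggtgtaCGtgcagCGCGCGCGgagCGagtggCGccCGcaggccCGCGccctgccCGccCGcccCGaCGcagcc
Egln2: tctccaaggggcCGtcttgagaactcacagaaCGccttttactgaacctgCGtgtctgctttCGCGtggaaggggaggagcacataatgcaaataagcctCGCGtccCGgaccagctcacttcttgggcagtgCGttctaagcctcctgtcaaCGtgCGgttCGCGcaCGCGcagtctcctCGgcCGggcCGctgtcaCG
Egln3: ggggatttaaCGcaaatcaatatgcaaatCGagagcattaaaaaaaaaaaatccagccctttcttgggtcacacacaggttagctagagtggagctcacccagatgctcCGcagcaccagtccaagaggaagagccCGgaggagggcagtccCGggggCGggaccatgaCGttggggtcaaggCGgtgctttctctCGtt
Postn: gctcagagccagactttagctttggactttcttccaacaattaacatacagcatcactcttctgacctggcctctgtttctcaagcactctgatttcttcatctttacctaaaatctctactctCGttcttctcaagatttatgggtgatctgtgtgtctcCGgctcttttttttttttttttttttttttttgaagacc

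The mean 5hmC over bins was lower in the sFlk1 tumours. It was 2.45%, 2.56% and 2.60% in sFlk1 tumours 1 to 3 and 2.96%, 2.70% and 2.65% in empty vector tumours 1 to 3. The highest sFlk1 tumour thus lay just below the lowest control, and the groups did not overlap. On average the sFlk1 tumours held 2.54% ± 0.0775 (SD, n = 3) and the controls 2.77% ± 0.163 (SD, n = 3), a difference of -0.235 percentage points (SE 0.104) or -8.47% of the control level. Two-sided exact permutation gave p = 0.10, the smallest p that 3 against 3 tumours allow, so that no single value could pass 0.05 in this design. Empty vector tumour 1 was the highest of the 6 by a clear margin, and without it the difference was -0.141 points, or -5.28%.

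The middle and upper parts of the distribution were lower in the sFlk1 tumours, while its lower part was not. The median bin stood at 2.27%, 2.35% and 2.29% in the sFlk1 tumours and at 2.66%, 2.43% and 2.44% in the controls, without overlap. At the 75th percentile the values were 3.51%, 3.65% and 3.85% against 4.32%, 3.93% and 3.90%, again without overlap. The 25th percentile, at 1.19%, 1.22% and 1.03% against 1.24%, 1.17% and 1.12%, overlapped, with a difference of -0.0303 points (SE 0.0679). The share of bins under 1% was 21.3% ± 2.62 (SD, n = 3) in the sFlk1 tumours and 21.0% ± 1.32 (SD, n = 3) in the controls. Bins over 5%, the most hydroxymethylated stretches, made up 6.27%, 8.61% and 11.9% of the genome bins of the sFlk1 tumours and 16.4%, 11.9% and 10.7% of those of the controls. Here the groups overlapped, through sFlk1 tumour 3 (exact permutation p = 0.30).

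**Figure D1:**
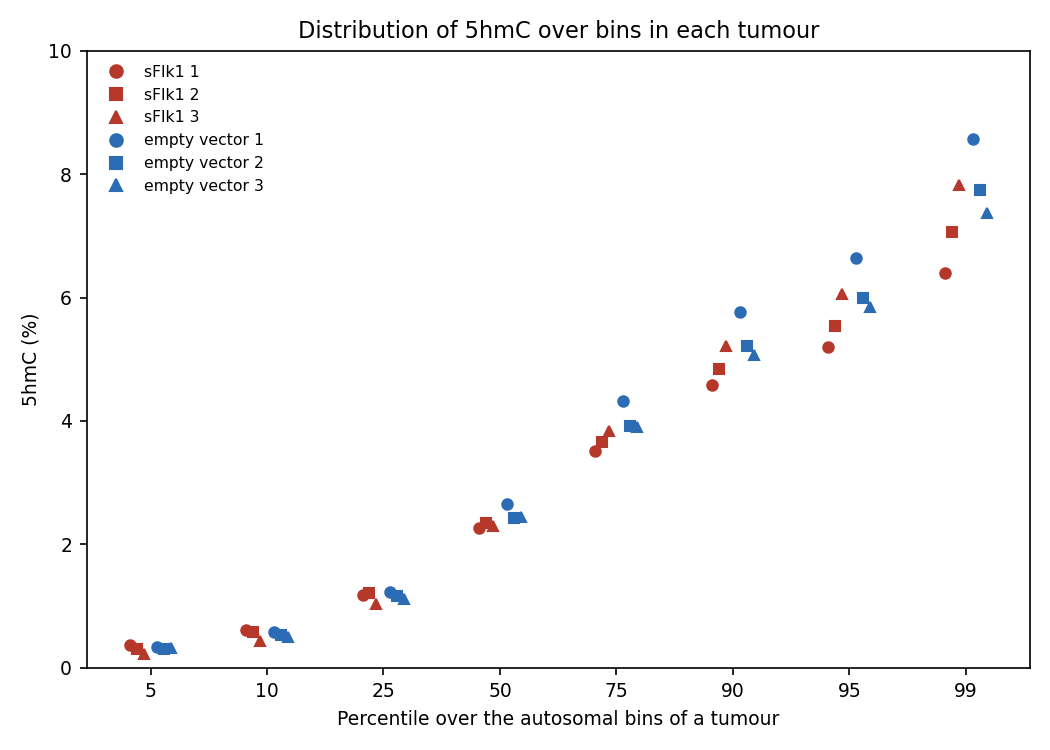
Percentiles of 5hmC (%) over 8019 autosomal bins, with 1 point per tumour: sFlk1 in red, empty vector in blue, symbols for tumours 1 to 3. The groups are apart at the 50th and 75th percentiles, and overlap at the 5th to 25th and at the 90th to 99th.

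sFlk1 tumour 3 differed from the other two of its group in shape. It had the highest mean of the 3 and also the highest share of bins at exactly 0, 4.54% against 1.41% and 2.58% in sFlk1 tumours 1 and 2 and 1.36% to 2.25% in the controls. Its SD over bins was 1.90 points, within the control range of 1.80 to 2.06, while the other sFlk1 tumours had 1.53 and 1.67. A bin listed at 0 may hold no 5hmC or no reads, and the depth is unknown, so the part of read depth in these shapes was not tested. The profiles of the sFlk1 tumours were also less alike: Pearson's r between 2 tumours over the bins ran from 0.713 to 0.748 within the sFlk1 group, from 0.782 to 0.823 within the controls and from 0.734 to 0.815 between the groups.

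The difference grew with the 5hmC level of a region. The bins were put into 5 equal classes by their mean in the 7 Phd2 model tumours, which are not among the tumours compared. The filter on bins did use the compared tumours. The reference mean in the lowest class starts at 0, so this class includes bins kept only through a compared tumour. In the lowest class, with a reference mean of 0.581%, the sFlk1 tumours held 0.810%, 0.822% and 0.752% and the controls 0.776%, 0.747% and 0.662%. The sFlk1 mean was here the higher one, by 0.0666 points (SE 0.0406), with overlap. The second class differed by -0.0644 points (SE 0.0729), also with overlap. In the third class the difference was -0.227 points (SE 0.0933) and in the fourth -0.345 (SE 0.150), both without overlap.

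In the highest class, with a reference mean of 5.49%, the sFlk1 tumours held 4.43%, 4.64% and 4.96% and the controls 5.65%, 5.11% and 5.08%. The groups did not overlap, and the difference was -0.603 points (SE 0.239), or -11.4% of the control level. Exact permutation gave p = 0.10 in each of the 3 upper classes (0.167 after Benjamini-Hochberg adjustment over the 5) and 0.20 and 0.50 in the 2 lower ones. The gap between the highest and lowest class was smaller in the sFlk1 tumours by 0.669 points, without overlap (exact permutation p = 0.10). The pattern also appears as counts: the share of bins with a lower sFlk1 mean was 42.3%, 54.5%, 63.8%, 67.3% and 73.6% from the lowest to the highest class. Without empty vector tumour 1 the lowest class differed by 12.9% and the highest by -8.22% of the control level.

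**Figure D2:**
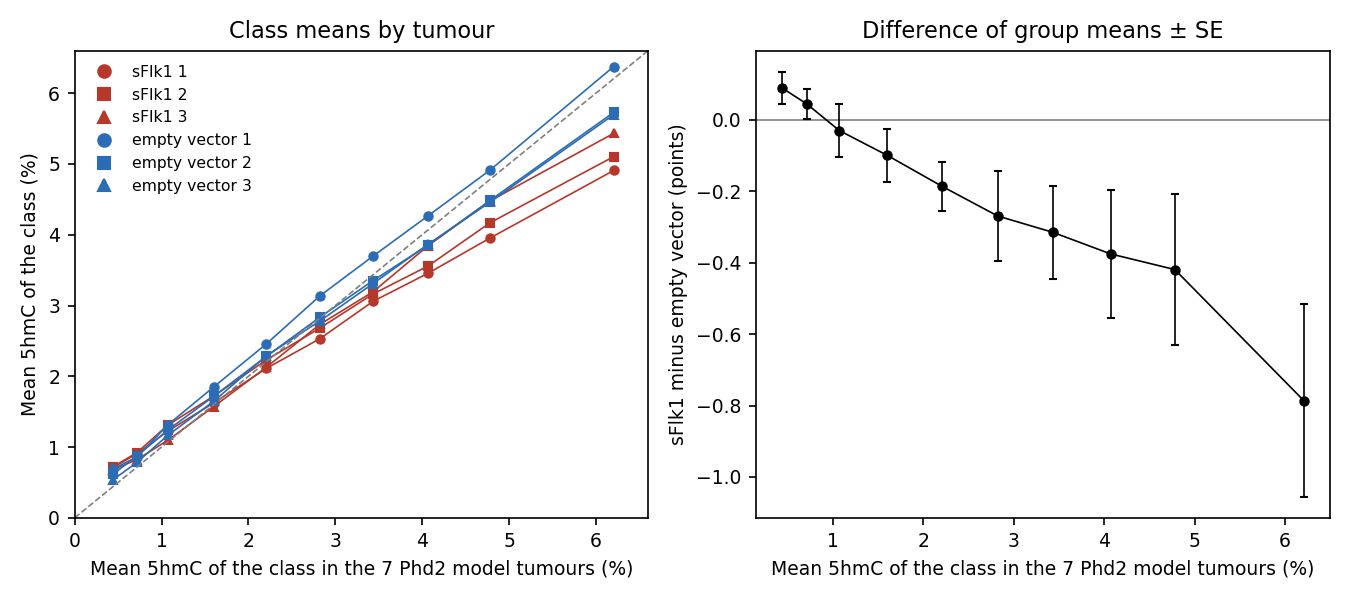
Left, mean 5hmC (%) of 10 equal classes of bins in each of the 6 tumours against the mean of the class in the 7 Phd2 model tumours, with the line of equality dashed. Right, the difference of the group means (sFlk1 minus empty vector, percentage points) with its SE, which runs from 0.0889 in the lowest class to -0.786 in the highest.

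A straight line through all bins gave the same reading. The slope of a tumour's bins on the Phd2 model profile was 0.733, 0.768 and 0.859 in the sFlk1 tumours and 0.992, 0.884 and 0.897 in the controls, where a slope under 1 marks a flatter profile. The groups did not overlap, and the difference was -0.138 (SE 0.0507, exact permutation p = 0.10). Relative to the controls this was -14.9%. Once each tumour was divided by its own mean, the slopes were 0.300, 0.300 and 0.331 against 0.336, 0.327 and 0.338, which overlap through sFlk1 tumour 3 (-7.10%, exact permutation p = 0.20). A lower mean thus went with part of the flatter slope. In percentage points, the largest step between neighbours of 10 classes was from class 9 (-0.419) to class 10 (-0.786). The top class, with a reference mean of 6.20%, differed by -13.2% and held a lower sFlk1 mean in 77.6% of its bins.

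Chromosome X, which the comparison leaves out, averaged 1.38% ± 0.0846 (SD, n = 3) in the sFlk1 tumours and 1.37% ± 0.0874 (SD, n = 3) in the controls. Its level lies in the range of the second autosomal class, where the groups overlapped too.

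Gene-rich DNA carries more 5hmC, and its difference was larger in points but not in steady order. Bins with no gene of the RefSeq table differed by -0.0774 points (SE 0.0727), those with 1 gene by -0.123, with 2 to 4 by -0.222, with 5 to 9 by -0.321 and with 10 or more by -0.246. Relative to the control level these were -5.52%, -7.16%, -8.78%, -9.29% and -7.54%. The gap between the densest and the gene-free bins differed by -0.168 points between the groups, with overlap (exact permutation p = 0.40). It moved much with single tumours: it was -0.0663 without empty vector tumour 1, -0.0749 without sFlk1 tumour 2, -0.109 without sFlk1 tumour 1 and -0.320 without sFlk1 tumour 3. Within the third level class, where all bins have a like level, the ratio of the group means ran from 0.886 to 0.925 over the 5 gene classes, in no order. Within the highest class the ratio was ordered, at 0.809, 0.859, 0.872, 0.889 and 0.904 from the 16 gene-free bins to the 407 bins with 10 or more genes, and the control level there ran the other way, from 7.22% to 4.95%.

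Bins were also classed by their promoters. A promoter, here 250 bases before to 50 bases after a start, was counted as CpG-rich with 15 or more CpG, which held for 35.2% of 31396 autosomal promoters, Egln1 (60), Egln2 (29) and Egln3 (16) among them but not Postn (4). Bins with no listed promoter held 1.77% in the sFlk1 tumours and 1.93% in the controls, and bins with 5 or more CpG-rich promoters 3.64% and 3.96%. The level thus roughly doubled from the poorest to the richest bins in both groups. Over all bins the relative difference did not follow it: it was -8.41% with no promoter, -7.92% with promoters of which none was CpG-rich, and -9.74%, -8.40% and -8.12% with 1, 2 to 4 and 5 or more CpG-rich ones. Within the highest level class it was -15.0%, -12.2%, -13.0%, -9.60% and -9.92% in the same order, larger in bins without a listed promoter than in those with CpG-rich ones, where the groups overlapped for the last 2. These are values of 300 kb bins and not of the promoters themselves, which the table does not resolve.

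All 19 autosomes had a lower mean in the sFlk1 tumours, 12 of them without overlap. The differences ran from -4.63% to -11.8% of the control level, and the smallest adjusted p by exact permutation over the 19 chromosomes was 0.158. Chromosomes of 1 tumour move together with its mean, so these are not 19 separate tests. Chromosome 18 had the largest difference: it held 2.65%, 2.66% and 2.72% in the sFlk1 tumours and 3.18%, 2.97% and 2.95% in the controls, a difference of -0.359 points (SE 0.0775). Chromosome 4 followed with -0.289 points (SE 0.108), from 2.61% against 2.90%.

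Chromosome 5 had the smallest difference, -0.117 points (SE 0.124), with 2.31%, 2.38% and 2.56% against 2.74%, 2.43% and 2.44%, which overlap. Chromosome 7, the most gene-dense autosome at 8.74 genes per bin and with the lowest 5hmC of all in both groups, differed by -0.156 points (SE 0.146). Set against the mean of each tumour, 11 chromosomes were lower and 8 higher, and the groups did not overlap for 3 of them: chromosome 18 was lower, and chromosomes 5 and 8 were higher. When each chromosome was cut into 5 equal stretches from the centromeric to the distal end, all 5 positions had lower sFlk1 means without overlap, by -0.199 to -0.277 points.

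**Figure D3:**
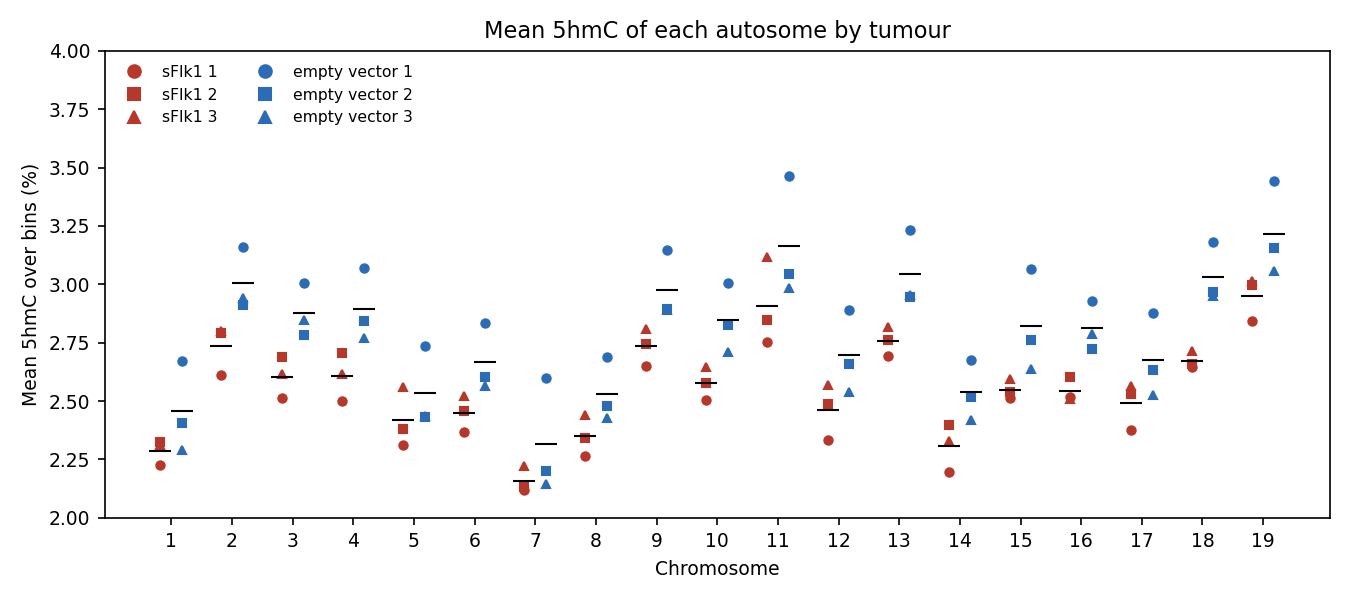
Mean 5hmC (%) over the bins of each autosome, with 1 point per tumour (sFlk1 red, empty vector blue) and black bars for group means; the axis starts above 0. Group means are lower for sFlk1 on all 19 autosomes, and empty vector tumour 1 is the highest tumour on each.

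At single bins the groups could not be told apart after adjustment. limma with Benjamini-Hochberg adjustment called 0 of 8019 bins (0.0%) at 0.05, and the smallest adjusted p was 0.166. At an unadjusted limma p under 0.05, 414 bins (5.16%) were lower and 151 (1.88%) higher in the sFlk1 tumours. In 685 bins (8.54%) all 3 sFlk1 values lay below all 3 controls, and in 250 (3.12%) above. The sFlk1 mean was the lower one in 4836 bins (60.3%), or in 54.5% without empty vector tumour 1. Each tumour was also scaled to the common median, which moves the bins by 0.124 on the log2 scale. At the same unadjusted limma p, 237 bins were then lower and 302 higher. The lower ones made up 44.0% of these in place of 73.3%. Scaling to a common median by itself pulls the lower and higher bins towards equal numbers, and 48.35% of all bins were lower after it. The source of the imbalance was therefore not tested.

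A single bin is noisy. The median limma SE of a bin's difference was 0.631 points, larger than the genome-wide difference, while the median SE of a 3 Mb window of up to 10 bins was 0.271. Neighbouring bins shared little of the difference: its correlation across 7995 pairs of adjacent bins was 0.0776, and across 7824 pairs 3 Mb apart it was 0.00407. For the Phd2 contrast of the same table the correlation of adjacent bins was 0.275. These are descriptions across bins, which share tumours, libraries and depth.

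Averaging over windows brought the common shift out more clearly than any place. Of 805 windows, 637 had a lower sFlk1 mean (79.1%), or 544 without empty vector tumour 1. The groups were apart with sFlk1 lower in 142 windows (17.6%) and with sFlk1 higher in 7 (0.87%). limma called 0 windows (0.0%) after adjustment, with a smallest adjusted p of 0.485, and at an unadjusted p under 0.05 it gave 68 lower and 4 higher.

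The bins with the smallest p are described next with their tumours' values. None of them passed adjustment over all bins. The bin with the smallest p of all was higher in the sFlk1 tumours: chr1:47700001-48000000 (GRCm38), which overlaps no protein-coding gene of the table, held 2.10%, 2.73% and 2.48% in the sFlk1 tumours and 0.911%, 0.197% and 0.360% in the controls. The difference was 1.95 points (limma SE 0.396, adjusted p = 0.166). All 3 sFlk1 tumours were well above the controls and above all 7 Phd2 model tumours, of which the highest held 1.83% and whose group means were 0.999% and 0.531%. When only bins above 0 in all 13 tumours were tested, this bin had an adjusted limma p of 0.0399, and over its other alternatives the adjusted p ran from 0.0732 to 0.863.

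The other 4 bins with higher sFlk1 means had control means of 0.361% to 1.52%. chr6:96600001-96900000 holds parts of Tafa1 and Tafa4, secreted chemokine-like proteins, and had 1.06%, 2.51% and 2.07% against 0.826%, 0.634% and 0.279%. chr5:27000001-27300000 lies in Dpp6, which encodes a partner of potassium channels, and had 0.624%, 1.68% and 2.32% against 0.691%, 0.242% and 0.151%, with overlap. chr13:67500001-67800000 holds 9 protein-coding genes, all zinc finger genes such as Zfp58 and Zfp87, and had 2.76%, 2.80% and 2.29% against 1.83%, 0.465% and 0.485%. chr2:51300001-51600000, with no protein-coding gene, had 3.47%, 4.46% and 2.80% against 0.920%, 1.89% and 1.75%. Their unadjusted limma p lay between 0.00154 and 0.00354, and the adjusted p between 0.466 and 0.517.

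The 5 bins with lower sFlk1 means had control means of 3.45% to 7.87%. chr6:6300001-6600000 holds Sem1, a small subunit of the proteasome, and had 2.69%, 1.61% and 2.92% against 6.49%, 4.97% and 5.09%. chr11:20700001-21000000 holds Aftph, a protein of vesicle traffic, and Lgalsl, a galectin-like protein, and had 4.62%, 2.90% and 4.22% against 8.95%, 8.21% and 6.45%. In both, the lowest control was clearly above the highest sFlk1 tumour. The differences were -3.11 points (limma SE 0.676) and -3.95 points (limma SE 0.877), each with an adjusted p of 0.253. At the bin of Sem1 the Phd2 wild-type and Phd2+/- means were 2.69% and 2.93%, near the sFlk1 mean of 2.41% and far below the control mean of 5.52%. At the bin of Aftph they were 5.03% and 6.75%, between the sFlk1 and control means.

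The other 3 were alike in having all sFlk1 tumours below all controls. chr8:90600001-90900000 lies in Chd9, a chromatin remodeller, and had 2.48%, 0.716% and 1.46% against 3.79%, 3.79% and 5.54%. chr6:147900001-148200000 holds Ergic2, a protein of the early secretory pathway, and Far2, which reduces fatty acyl-CoA to fatty alcohol, and had 1.41%, 1.05% and 0.974% against 4.00%, 2.64% and 3.72%. chr4:81900001-82200000, with no protein-coding gene, spread widely among the sFlk1 tumours, at 4.63%, 3.16% and 1.06% against 7.89%, 7.41% and 6.12%. The adjusted limma p of the 3 bins lay between 0.342 and 0.356.

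Among the windows, the end of chromosome 14 had the smallest p. The window chr14:123000001-124902244 has only 7 bins and holds Fgf14, Itgbl1 and Nalcn, of which Nalcn encodes a sodium leak channel. Its values were 1.81%, 3.97% and 2.85% against 5.43%, 4.43% and 3.54%, which overlap. The difference was -1.59 points (limma SE 0.447, adjusted p = 0.485), and it was -1.06 without sFlk1 tumour 1, -1.11 without empty vector tumour 1 and -2.14 without sFlk1 tumour 2. In that last fit the window had an adjusted limma p of 0.0143, over a range of 0.000441 to 0.950 among all its alternatives.

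The next windows did not overlap between the groups. chr18:21000001-24000000, with 13 protein-coding genes such as Dtna, a partner of dystrophin, and the microtubule-binding Mapre2, had 2.30%, 1.95% and 1.92% against 3.06%, 3.14% and 2.50%. chr6:15000001-18000000 holds Met, the receptor of hepatocyte growth factor, the caveolae genes Cav1 and Cav2, and the ligand gene Wnt2, and had 1.91%, 2.32% and 1.92% against 2.84%, 3.12% and 2.64%. In the other direction chr14:87000001-90000000, with Diaph3, Pcdh20 and Tdrd3, had 1.61%, 1.49% and 1.18% against 0.970%, 1.07% and 0.989%. chr14:39000001-42000000 and chr4:75000001-78000000, the second over the phosphatase gene Ptprd, were higher by 0.348 and 0.294 points, also without overlap. The adjusted limma p of these 5 windows lay between 0.485 and 0.565.

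Genes of the biology in question were taken from 15 lists of 222 genes, each read at the bin that holds most of its body. One gene lies on chromosome X, and the other 221 fell in 210 bins, so some share a value. The sFlk1 mean was the lower one for 134 of 221 (60.6%), near the 60.3% of all bins. At an unadjusted limma p under 0.05, 14 were lower (6.33%) and 4 higher (1.81%), and 17 (7.69%) and 7 (3.17%) did not overlap, close to the shares of all bins given above. None passed adjustment. Relative to each tumour's mean, 102 of 221 were lower. The same count was not made over all bins, so the relative counts of single lists below have no such share beside them. After scaling to the median, a related measure, 48.35% of all bins had a lower sFlk1 mean. Of the 46 genes whose values follow, 30 had a difference that moved by over 1.5 times when 1 tumour was left out, and 5 of these (Kdr, Vegfa, Flt1, Tet1 and Tet3) turned sign. The 16 that did not move so far were Thbs1, Angpt1, Notch4, Egln2, Egln3, Bnip3l, Pfkfb4, Ramp2, Mmrn2, Wap, Postn, Tsc2, Cdkn1b, Sos1, Pik3ca and Wt1. Since a gene's value is that of 300 kb, it also holds whatever lies beside the gene. Some genes span 2 bins and are read at 1. As a mean over the gene body, differences were smaller for Flt1 (0.240), Jag1 (0.291), Dcn (0.201) and Cdkn1a (0.252). They were also smaller for Angpt1 (-1.07), Sos1 (-0.833), Tsc2 (-1.62) and Trp63 (-1.445). Those of Pik3ca (0.792) and Tet3 (-0.571) were larger, and Tet2 turned sign (0.115). Over gene bodies the count of lower means was again 134.

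Of 23 measured angiogenic genes, 13 had a lower and 10 a higher sFlk1 mean, with a median difference of -0.120 points against -0.162 over all bins. The 13 are 56.5% of a list with a mean level class of 3.96, and 67.3% of all bins of class 4 were lower. Relative to each tumour's mean, 9 of 23 were lower. The bin of Vegfa, the ligand that sFlk1 binds, had 4.50%, 2.73% and 5.53% in the sFlk1 tumours and 4.61%, 3.96% and 3.18% in the controls. The bin of Kdr, the receptor whose outer part sFlk1 is, had 2.81%, 2.16% and 2.40% against 3.10%, 2.06% and 2.56%. That of Flt1, the VEGF receptor 1, had 2.17%, 1.82% and 5.88% against 4.03%, 2.20% and 1.89%. All 3 overlapped fully, with differences of 0.338, -0.120 and 0.586 points and limma SEs of 0.783, 0.593 and 0.812. The sign of the Vegfa and Flt1 differences turned without sFlk1 tumour 3, to -0.300 and -0.709, and that of Kdr without empty vector tumour 1, to 0.142, or with scaling to the median, to 0.1098.

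For 3 angiogenic genes the groups were apart. Thbs1, which encodes the inhibitor of angiogenesis thrombospondin 1, had 3.09%, 2.89% and 3.60% against 5.47%, 5.47% and 5.01%, a difference of -2.13 points (limma SE 0.831, adjusted p = 0.621). Angpt1, which encodes the ligand that steadies vessels through the TIE2 receptor, had 2.34%, 3.26% and 2.71% against 3.84%, 4.67% and 5.14% (-1.78 points, limma SE 0.699, adjusted p = 0.623). Notch4, a Notch receptor of endothelium, was higher, with 3.16%, 3.55% and 3.96% against 1.49%, 2.65% and 2.14% (limma adjusted p = 0.691). Jag1, a Notch ligand, had a higher mean through sFlk1 tumour 3, with 3.14%, 2.81% and 6.19% against 2.34%, 1.99% and 3.72%, and overlapped. Its difference of 1.37 points was 0.297 without that tumour, and 0.291 as a mean over the 2 bins of its body. The 2 lower genes without overlap (8.70% of 23) and the 1 higher (4.35%) stand against 8.54% and 3.12% of all bins.

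The oxygen-sensing list holds the prolyl hydroxylases that mark HIF for decay in the presence of oxygen, the HIF subunits and VHL. Of 10 genes 5 had a lower sFlk1 mean, also relative to each tumour's mean, and 8 without empty vector tumour 2. The list had a mean level class of 4.1, and 67.3% of all bins of class 4 had a lower sFlk1 mean. Egln3 (PHD3), itself a HIF target and the least CpG-rich of the 3 prolyl hydroxylase promoters printed above, had the smallest limma p of all 221 listed genes and a higher mean. Its bin held 5.76%, 7.85% and 8.24% in the sFlk1 tumours and 4.78%, 5.07% and 4.61% in the controls. The groups did not overlap, and the difference was 2.46 points (limma SE 0.855, adjusted p = 0.544), from 1.99 to 3.22 with any 1 tumour left out. Egln1 (PHD2), the main oxygen sensor, had 3.39%, 4.16% and 3.63% against 7.91%, 3.97% and 4.65%, where empty vector tumour 1 stood far above the rest. Egln2 (PHD1) had 2.64%, 3.05% and 2.91% against 4.40%, 3.85% and 3.19%, without overlap (limma adjusted p = 0.775). The 3 family members therefore had differences of 2.46, -1.79 and -0.947 points, of unlike sign, and none passed. That of Egln1 was -0.584 without empty vector tumour 1, and that of Egln2 lay between -1.26 and -0.655 with any 1 tumour left out. Epas1, the HIF-2 alpha subunit, had a mean of 4.30% against 3.64%, with overlap.

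HIF-induced genes divided evenly: 12 of 24 had a lower sFlk1 mean, and the median difference was 0.00859 points. Over all bins the share of lower means was 60.3% and the median -0.162 points. The list had a mean level class of 4.21, and over all bins of class 4 these were 67.3% and -0.338 points. Pfkfb4, a regulator of glycolysis, had 2.36%, 2.55% and 2.42% against 4.36%, 4.48% and 3.54%, without overlap (-1.68 points, limma adjusted p = 0.661). Bnip3l, a mitophagy receptor, had 2.74%, 3.94% and 2.07% against 3.80%, 5.94% and 4.75% (-1.91 points, limma adjusted p = 0.661), where the groups just overlapped. In the other direction the glycolytic enzyme genes Eno1 and Hk2 had means of 4.63% against 3.29% and 2.77% against 1.88%, both with overlap. Their differences of 1.34 and 0.896 points were 0.330 without sFlk1 tumour 2 (Eno1) and 0.480 without sFlk1 tumour 1 (Hk2).

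**Figure D4:**
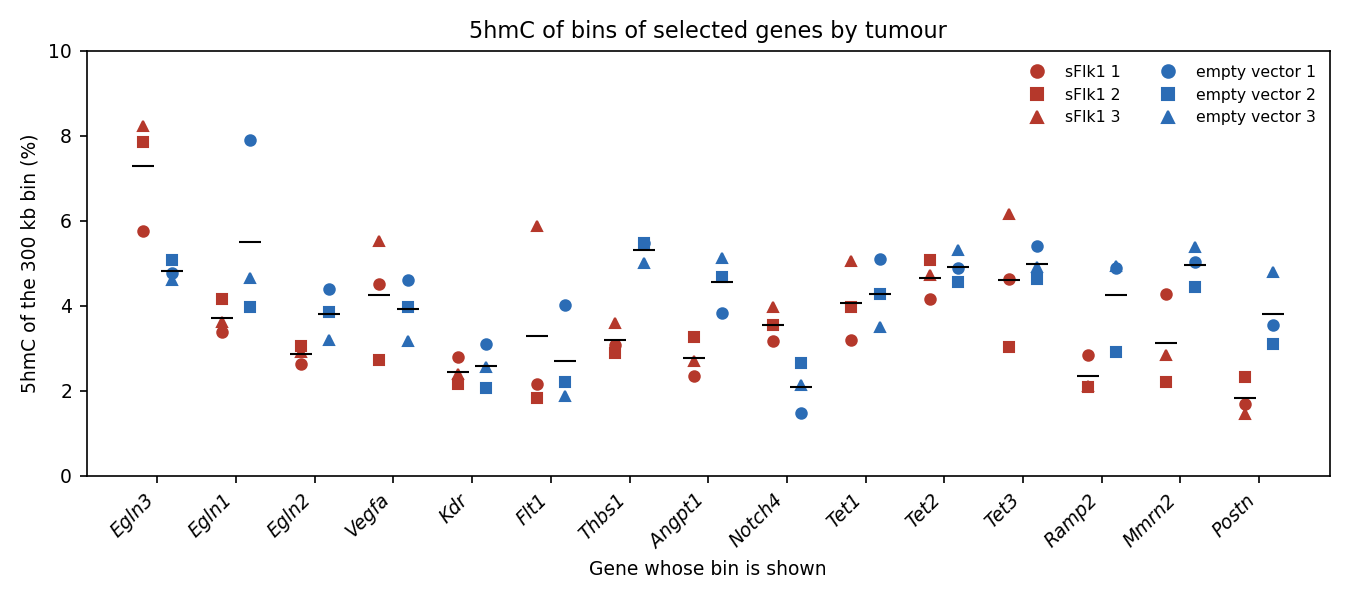
5hmC (%) of the 300 kb bin holding each gene, with 1 point per tumour (sFlk1 red, empty vector blue) and black bars for group means. Egln3 and Notch4 are higher and Egln2, Thbs1, Angpt1, Ramp2, Mmrn2 and Postn lower in the sFlk1 tumours without overlap, while Vegfa, Kdr, Flt1 and Tet1 to Tet3 overlap.

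Most genes of the 5hmC machinery overlapped between the groups. Of 15 genes of the TET and cytosine modification list, 9 had a lower sFlk1 mean and 4 relative to each tumour's mean, and the smallest unadjusted limma p was 0.166. The 9 are 60% of a list with a mean level class of 4, where 67.3% of all bins were lower. The groups were apart for 1 gene, Smug1, a uracil glycosylase singled out after its values were seen, with 0.787%, 0.781% and 0.626% against 0.853%, 0.949% and 1.18% (-0.263 points, or -0.169 without empty vector tumour 3, limma adjusted p = 0.904). This gene is 6.67% of the list, and 8.54% of all bins were lower without overlap. Its bin is also that of Hoxc10 in the Polycomb list, so the value is not particular to Smug1. The bin of Tet1 had 3.20%, 3.96% and 5.06% against 5.09%, 4.28% and 3.49%, that of Tet2 4.15%, 5.08% and 4.73% against 4.89%, 4.56% and 5.31%, and that of Tet3 4.63%, 3.04% and 6.17% against 5.41%, 4.62% and 4.92%. The groups overlapped for all 3, and the differences, -0.215, -0.264 and -0.376 points, turned to 0.154, 0.133 and 0.0546 with scaling to the median. As a mean over the 2 bins of its body, the difference of Tet2 was 0.115 and that of Tet3 -0.571. Gadd45a, a stress gene tied to demethylation, had a mean of 6.02% against 7.55%, and Tdg, the glycosylase that removes further oxidised bases, 3.33% against 2.70%, both with overlap. The table gives hydroxymethylation of these loci, not expression or activity of the enzymes.

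Endothelial markers bear on the treatment, since sFlk1 acts on vessels. Of 14 markers, 11 had a lower sFlk1 mean (78.6%), with a median difference of -0.429 points, and 8 were lower relative to each tumour's mean. Over all bins the share of lower means was 60.3% and the median -0.162 points. The list had a mean level class of 3.71, and over all bins of class 4 these were 67.3% and -0.338 points. Without empty vector tumour 1, 8 of 14 were lower. Ramp2, a subunit of the adrenomedullin receptor, had 2.83%, 2.09% and 2.12% against 4.88%, 2.92% and 4.93% (-1.90 points, limma SE 0.681, adjusted p = 0.582). Mmrn2, a matrix protein of endothelium, had 4.28%, 2.21% and 2.85% against 5.04%, 4.44% and 5.39% (-1.84 points, limma adjusted p = 0.647). Both were without overlap, whereas Cdh5, the endothelial cadherin, had a mean of 2.81% against 2.52% with overlap. These 2 genes are 14.3% of the list, and 8.54% of all bins and 10.0% of class 4 were lower without overlap. Of 8 markers of mural cells, which wrap vessels, 6 had a lower sFlk1 mean and 3 relative to each tumour's mean, and none had groups apart. The 6 are 75% of a list with a mean level class of 4, where 67.3% of all bins were lower.

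The epithelial lists hold luminal, milk protein and basal genes, and values of whole tumour pieces do not assign them to the cancer cells. Their bins are of high level (mean level class 4.13 for luminal and 4.10 for basal genes). Of all bins of class 4, 67.3% had a lower sFlk1 mean. Of 16 luminal markers 12 had a lower sFlk1 mean (median -0.484 points), or 9 relative to each tumour's mean. Gata3, the master factor of luminal cells, had 5.01%, 5.11% and 5.32% against 6.13%, 8.10% and 6.47%, without overlap (-1.75 points, limma adjusted p = 0.705), and Areg, a ligand of the EGF receptor, had a mean of 3.97% against 3.12%. Without empty vector tumour 2 the difference of Gata3 was -1.15. Of 9 milk protein genes 7 were lower, but 4 of them share 1 bin (the median is -0.771 points over genes and -0.0462 over the 6 bins), and without sFlk1 tumour 1 only 3 were. Wap, a whey protein, had 1.01%, 2.06% and 1.23% against 2.82%, 2.07% and 1.92%, with overlap, and Csn3, the kappa casein gene, had a mean of 4.73% against 4.01%. Of 10 basal and myoepithelial markers 6 were lower, a share of 60%.

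Smooth muscle genes of the basal list pointed both ways. Tagln, an actin-binding protein, had 5.33%, 4.89% and 3.57% against 8.49%, 5.89% and 5.68%, while Cnn1, another one, had 2.67%, 3.26% and 4.44% against 1.84%, 2.30% and 2.32%. Neither pair of groups overlapped, and both had an unadjusted limma p near the threshold (0.0450 and 0.0441) and an adjusted p of 0.676 and 0.674. The difference of Tagln, -2.09 points, was -1.19 without empty vector tumour 1, and that of Cnn1, 1.30, was 0.809 without sFlk1 tumour 3. Trp63, the master factor of basal cells, had a mean of 4.20% against 5.77%, with overlap.

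Stromal and immune markers had medians near 0, against -0.162 points over all bins, of which 60.3% had a lower sFlk1 mean. The mean level class was 3.385 for fibroblast and matrix genes and 3.5 for leukocyte genes. Over all bins of classes 3 and 4, 63.8% and 67.3% were lower, with medians of -0.226 and -0.338 points. Of 13 fibroblast and matrix genes 5 had a lower sFlk1 mean (median 0.0491 points), or 8 without sFlk1 tumour 2 or empty vector tumour 2. Of 14 leukocyte genes 6 were lower (median 0.0309 points). Postn, periostin, had the smallest limma p of these, with 1.69%, 2.32% and 1.46% against 3.54%, 3.11% and 4.78%, without overlap (-1.99 points, limma SE 0.693, adjusted p = 0.550). Thy1, a surface marker of fibroblasts, was higher, with 2.37%, 2.11% and 3.60% against 1.72%, 1.10% and 1.61% (1.22 points, or 0.761 without sFlk1 tumour 3, limma adjusted p = 0.661), and Dcn, decorin, had a mean of 3.36% against 2.31%. Among leukocyte genes, Cd8a of cytotoxic T cells had a mean of 2.65% against 3.87%, and Lyz2 of macrophages and neutrophils 4.62% against 3.38%, both with overlap.

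The list of proteins that bind or follow the PyMT oncoprotein, such as phosphoinositide 3-kinase, SRC and SHC adaptors, had the largest share of lower means. Of its 17 genes 15 had a lower sFlk1 mean (88.2%), with a median difference of -0.742 points, and 13 were lower relative to each tumour's mean. The count lay between 13 and 16 with any 1 tumour left out. These genes lie in highly hydroxymethylated bins (mean level class 4.47 of 5), and over all bins of classes 4 and 5 the share of lower means was 67.3% and 73.6% and the median difference -0.338 and -0.592 points. No gene of the list reached an unadjusted limma p of 0.05: Sos1, the exchange factor for RAS, had 2.26%, 2.70% and 3.32% against 3.79%, 4.44% and 4.46%, without overlap (limma adjusted p = 0.736). Plcg1, phospholipase C gamma, had a mean of 3.69% against 5.33%, with overlap, and Pik3ca, the catalytic subunit of the kinase that middle T recruits, was higher without overlap, with 4.28%, 4.46% and 3.68% against 3.47%, 3.33% and 3.50%.

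Tumour suppressor genes, Polycomb targets and housekeeping genes had lower sFlk1 means in 55.6%, 61.1% and 50% of genes, against 60.3% of all bins. The tumour suppressor and housekeeping lists lie in bins of high level (mean level class 4.39 and 4.42). Over all bins of classes 4 and 5, 67.3% and 73.6% had a lower mean, with medians of -0.338 and -0.592 points. Polycomb targets had a mean level class of 2.78, and 63.8% of class 3 was lower. Of 18 tumour suppressors 10 had a lower sFlk1 mean (median -0.0998 points), or 6 relative to each tumour's mean. Tsc2, a brake on mTORC1, had 3.84%, 2.23% and 1.23% against 6.19%, 4.54% and 3.42% (-2.28 points, limma SE 0.818, adjusted p = 0.582), where the groups overlapped through sFlk1 tumour 1, and the cell cycle inhibitors Cdkn1a and Cdkn1b had means of 4.86% against 3.96% and 6.12% against 5.24%. Of 18 Polycomb targets 11 were lower: Lhx2 had a mean of 3.58% against 5.78%, with overlap, and Wt1, at 2.67%, 2.04% and 2.12% against 1.495%, 1.06% and 0.905%, was higher without overlap (limma adjusted p = 0.629). Of 12 housekeeping genes 6 were lower, or 11 without sFlk1 tumour 3, with Gapdh higher without overlap, at 5.70%, 5.56% and 5.53% against 3.87%, 5.32% and 2.81% (1.60 points, or 1.00 without empty vector tumour 3), and Tbp at a mean of 2.78% against 4.13%.

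**Figure D5:**
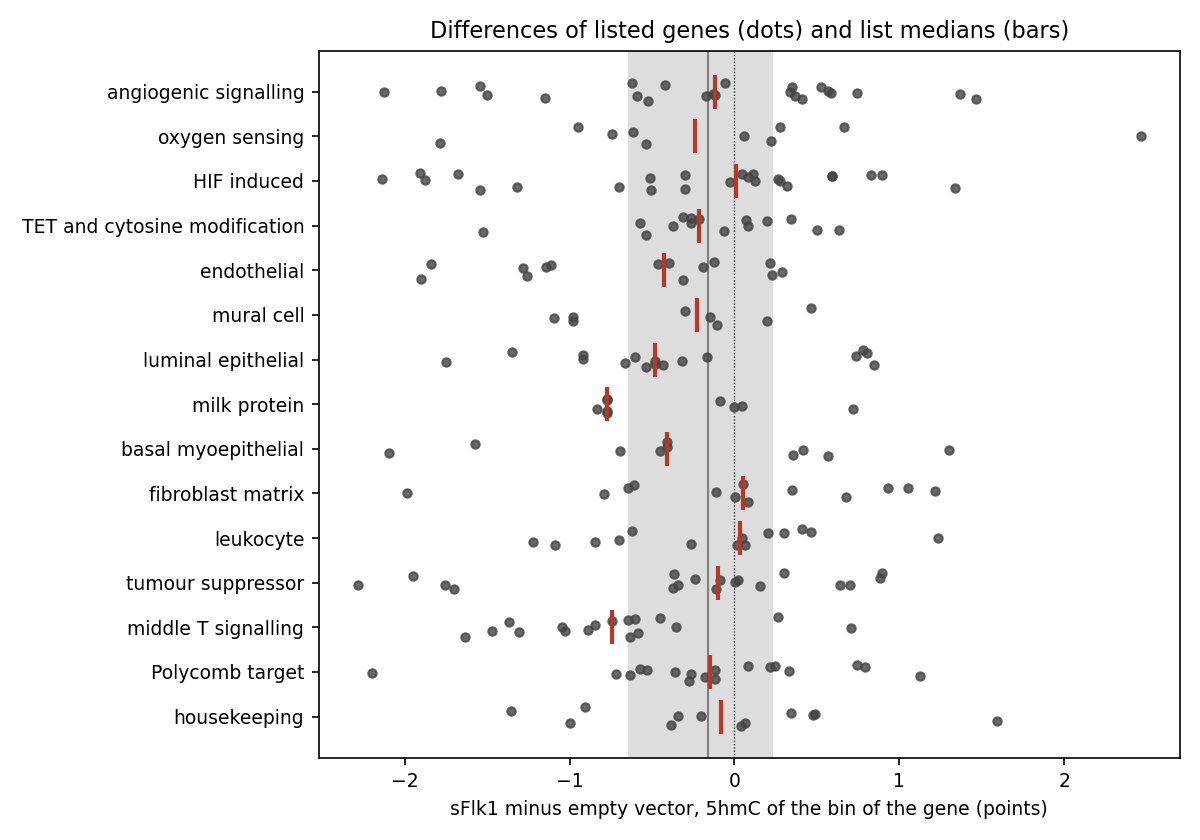
Difference of the group means (sFlk1 minus empty vector, percentage points) at the bin of each of 221 listed genes, as dots by list, with the list median as a red bar. The grey line and band are the median (-0.162) and the range from the 25th to the 75th percentile of all 8019 bins; the list medians over genes run from -0.771 for milk proteins, where 4 genes share 1 bin and the median over bins is -0.0462, to 0.0491 for fibroblast genes, and 15 of 17 dots of the middle T list lie left of 0.

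In the other model of the series the less oxygenated arm, Phd2 wild-type, was also the lower one, at 2.42% ± 0.144 (SD, n = 3) against 2.97% ± 0.278 (SD, n = 4) in Phd2+/- tumours, a difference of -0.551 points. The difference between the differences of the 2 models was 0.316 points and was not distinguished from 0 (exact permutation within models, p = 0.333). Across 8019 bins the differences of both models had a Pearson's r of 0.260, and within the 5 level classes r ran from 0.0218 to 0.161. The points share level and base composition, and r carries no test.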

How the data were processed

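Tumours were snap-frozen and DNA was extracted with 200 µM of the iron chelator DFO in the buffers, per the labels' protocols. One table in percent was deposited by the authors, with a 5hmC value for each 300 kb bin and tumour. It holds no read counts, so the depth of each tumour, and with it the precision of a bin, is unknown. The submitters' processing notes list Bismark 0.13.1 and mm9 without a role, but the last bins end at GRCm38 chromosome lengths, so coordinates and the RefSeq table (GRCm38.p6) are GRCm38. How calls were pooled in a bin is not given in the sources used here.

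Groups came from the sample titles. A tumour's value is the unweighted mean over bins, compared by exact two-sided permutation, and SEs of such differences come from the group SDs. The titles number separate mice, and p-values measure the spread between these tumours. Bins and 3 Mb windows (at least 5 bins) were tested with limma 3.58.1 (R 4.3.3) on percentages with a variance trend, in 1 fit of all 13 tumours with 4 group means, and adjusted over 8576 autosomal and X bins. limma assumes near-normal values, which bins at 0 do not meet. Both steps were tested on simulated data. All 222 listed genes matched the RefSeq table. The 162 with a listed promoter included the 4 shown, each taken at the promoter that starts at the 5' end of the gene.

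The members, lists and rules were chosen with earlier results of these data known. Named are, among bins above 0 in all 13 tumours, the 5 with the smallest limma p in each direction, the 3 such windows, the 2 largest and 2 smallest chromosomes, and from each list up to 2 genes with the smallest p in each direction, besides members of the angiogenic, oxygen-sensing and TET lists. Not every gene that the rule selects is described. Alternatives were other scales, filters, scaling, weights, window and class definitions, the replicate block and each tumour left out. The slope after division by the tumour mean, protein-coding genes only, and the alternatives of single genes, bins, windows and lists were added after seeing the data.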

Additional observations from a re-analysis of the deposited data

How the results depend on the processing

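The genome-wide mean, the slope on the Phd2 profile and the gap between level classes kept their negative sign under every alternative run, and p never fell under the 0.10 that the design allows. With each tumour left out in turn the genome-wide difference ran from -0.292 to -0.141 points.

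Of the counts, the chromosomes with a lower mean were 10 relative to the tumour mean as a ratio. With bins above 0 in all 13 tumours, limma called 1 bin, and with each tumour left out 0 to 3 bins (3 without sFlk1 tumour 1). Scaling to the median gave 237 lower and 302 higher bins at an unadjusted limma p under 0.05, and 394 lower and 403 higher bins without overlap. A fit of only the 6 tumours gave 316 lower and 96 higher bins, and leaving out single tumours 129 to 274 higher ones. For 3 Mb windows, limma called 1 with only the 6 tumours, and 0 to 1 with each tumour left out. Fewer tumours also change the estimate of the spread; the cause of these moves was not tested.

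Signs turned for Kdr (0.1098), Tet1 (0.154), Tet2 (0.133) and Tet3 (0.0546) with scaling to the median. That of Tet2 also turned as a mean over the bins of its gene body (0.115). With each tumour left out, the difference ran from -0.300 to 1.10 for Vegfa, -0.375 to 0.142 for Kdr, -0.709 to 1.32 for Flt1, -0.706 to 0.221 for Tet1 and -1.15 to 0.412 for Tet3.

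Whether equal mouse numbers pair the tumours was not settled. Deviations from the group mean correlated across bins at -0.0553, -0.0456 and -0.0459 for equal numbers, and at 0.0188 to 0.0328 for unequal ones. Such deviations cancel within a group, which ties these correlations together, so they cannot show whether same-numbered mice were handled together. With the replicate block limma called 2 windows and 0 bins, and the paired test of the genome-wide mean gave an exact permutation p of 0.25, the smallest it can give.

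Unknown depth limits every bin value: a 0 may be missing data, and no interval for counting error could be given. With 3 tumours a group, a bin must differ by several SEs of about 0.631 points to be called.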
